A study of Mus musculus with 8 samples.

Results

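Mouse chromosomes 11 and 14 carried the highest and the lowest density of RelA peaks among the 19 autosomes, and the peaks on both were compared here by length, by gene number, along each chromosome and by gene cluster. The members were all peaks on these chromosomes in the deposited list: 982 of 9829, of which 635 lay on chromosome 11 and 347 on chromosome 14. The other 17 autosomes held 8706 peaks and chromosome X 135. The chromosomes were chosen by peaks per Mb, the measured value that set the members, so every difference in peak number between them is a description, with no test.

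The peaks came from chromatin immunoprecipitation and sequencing (ChIP-seq) of RelA in primary cells, fibroblasts of wild-type C57BL/6 mouse embryos, that had been serum-starved overnight. The study made 8 libraries, 2 in each of 4 groups: RelA ChIP at 0 h, at 0.5 h and at 3 h of TNF at 10 ng/ml, and input DNA. Embryonic fibroblasts are a mixed connective tissue culture, and RelA was precipitated with an antibody against p65 after cross-linking with disuccinimidyl glutarate and formaldehyde. The list gives a chromosome, a start and an end for each peak in the mm10 genome, with no height, no p-value and no library. Times of TNF and replicates could therefore not be compared, the depth behind a peak is unknown, and no marker of the cells could be read from the list.

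RelA (p65) is a subunit of NF-kB, a family of dimeric transcription factors. In resting cells IkB proteins hold NF-kB in the cytoplasm. TNF binds its receptor, a chain of adaptor proteins and ubiquitin ligases activates the IKK kinases, IkB is degraded and RelA enters the nucleus, where it binds kappaB sites. Its targets in fibroblasts include chemokines, survival genes and the inhibitors that end the response. Genes of such families often stand side by side on a chromosome, as do genes of families that fibroblasts do not use, such as olfactory receptors and keratins.

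The promoters shown here were chosen because they lie under a peak and hold a match to a kappaB pattern. Most promoter windows under a peak held none: a match stood in 26 of 87 on chromosome 11 and in 14 of 44 on chromosome 14. The windows below hold 160 bases each, cut from the 250 bases before to 50 bases after the transcription start in RefSeq (GRCm38.p6), and are written 5′ to 3′ on the strand of the gene. Capitals mark every base of a match to the kappaB consensus, a pattern of 10 positions that starts with 3 G and ends with 2 C, searched on both strands. On chromosome 11 they belong to Irf1, a transcription factor of the interferon response, Trp53, the p53 tumour suppressor, Sphk1, which makes sphingosine 1-phosphate, and Tnip1, an adaptor that restrains NF-kB signalling.
Irf1 promoter, chr11:53769904-53770063, plus strand: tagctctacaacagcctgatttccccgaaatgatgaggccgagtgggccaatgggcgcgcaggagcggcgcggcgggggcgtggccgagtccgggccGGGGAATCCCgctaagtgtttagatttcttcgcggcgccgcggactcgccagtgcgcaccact
Trp53 promoter, chr11:69580249-69580408, plus strand: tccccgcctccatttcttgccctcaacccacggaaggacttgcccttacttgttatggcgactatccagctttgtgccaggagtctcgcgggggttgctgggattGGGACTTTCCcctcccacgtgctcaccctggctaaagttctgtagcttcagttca
Sphk1 promoter, chr11:116531801-116531960, plus strand: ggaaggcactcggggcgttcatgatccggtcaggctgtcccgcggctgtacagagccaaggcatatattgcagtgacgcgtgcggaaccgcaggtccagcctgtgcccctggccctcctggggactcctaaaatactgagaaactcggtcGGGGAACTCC
Tnip1 promoter, chr11:54962914-54963073, minus strand: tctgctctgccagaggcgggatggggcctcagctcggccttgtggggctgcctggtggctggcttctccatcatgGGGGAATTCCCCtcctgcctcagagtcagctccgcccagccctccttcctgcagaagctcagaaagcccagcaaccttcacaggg
On chromosome 14 no response gene had both a peak over the promoter window and a match, and the windows belong to other genes, taken in the order of their distance from the peak centre. Tpt1 encodes the translationally controlled tumour protein and Slc7a7 a subunit of a transporter of basic amino acids.
Ccdc122 promoter, chr14:77036654-77036813, plus strand: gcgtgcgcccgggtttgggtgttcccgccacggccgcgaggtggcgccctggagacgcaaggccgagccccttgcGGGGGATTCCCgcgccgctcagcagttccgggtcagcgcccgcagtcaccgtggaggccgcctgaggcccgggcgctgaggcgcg
Tpt1 promoter, chr14:75845074-75845233, plus strand: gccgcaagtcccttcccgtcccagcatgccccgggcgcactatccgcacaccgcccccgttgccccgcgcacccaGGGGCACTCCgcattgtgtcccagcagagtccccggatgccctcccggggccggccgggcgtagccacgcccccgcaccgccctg
Rcbtb1 promoter, chr14:59201080-59201239, plus strand: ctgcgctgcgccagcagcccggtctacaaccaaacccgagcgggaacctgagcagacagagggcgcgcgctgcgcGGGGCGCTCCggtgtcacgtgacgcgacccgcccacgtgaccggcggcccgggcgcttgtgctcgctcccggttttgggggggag
Slc7a7 promoter, chr14:54417742-54417901, minus strand: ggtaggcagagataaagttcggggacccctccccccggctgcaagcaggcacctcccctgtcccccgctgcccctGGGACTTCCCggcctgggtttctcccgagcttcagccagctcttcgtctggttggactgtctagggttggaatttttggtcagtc
The match in the Irf1 window began at -13, counted from the start site as 0, in that of Trp53 at -5 and in that of Sphk1 at 40. The Tnip1 window held 3 overlapping matches in 12 bases, and that of Ccdc122 held 2 in 11 bases. The matches of Tpt1, Rcbtb1 and Slc7a7 lay further upstream, at -107, -73 and -124.

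The share of promoter windows with a kappaB match under a peak was nearly the same on both chromosomes. Of the 87 windows on chromosome 11 that a peak overlapped by at least 1 base, 26 held a match (29.9%, Wilson 95% interval 21.3 to 40.2). On chromosome 14 it was 14 of 44 (31.8%, 20 to 46.6), and on the other autosomes 282 of 959 (29.4%, 26.6 to 32.4). Windows without a peak held a match in 144 of 1474 cases on chromosome 11 (9.77%) and in 83 of 819 on chromosome 14 (10.1%). Among all 20085 autosomal windows the share was 9.42%. Windows of 1 gene can overlap, and intervals here and below cover counting error only.

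Other patterns were counted in the same windows. The GC box GGGCGG stood in 58 of 87 windows under a peak on chromosome 11 (66.7%) and in 34 of 44 on chromosome 14 (77.3%), against 47.0% of all autosomal windows. The AP-1 pattern TGANTCA stood in 8 of 87 (9.20%, 4.73 to 17.1) and in 1 of 44 (2.27%, 0.402 to 11.8), against 7.06% of all. Windows under a peak were richer in G and C: the median GC content was 63.0% with and 58.0% without a peak on chromosome 11, and 60.8% and 54.3% on chromosome 14. Part of the kappaB pattern is itself made of G and C, and the part of base composition in the kappaB shares was not tested. A match overlapped a GC box in 3 of the 26 matching windows on chromosome 11 and in 0 of the 14 on chromosome 14.

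**Figure D1:**
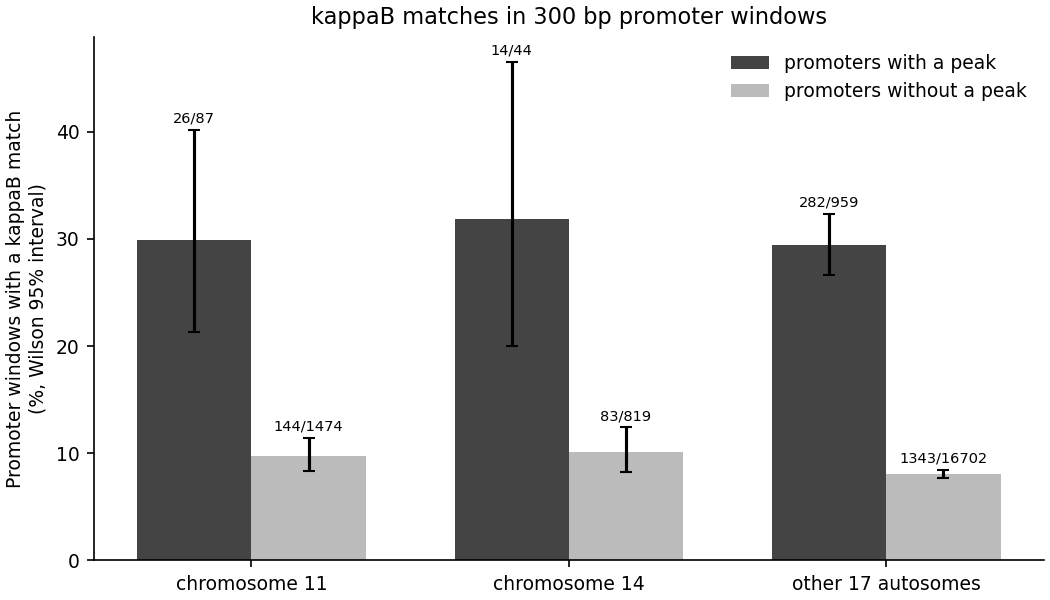
Share of 300-base promoter windows that held a kappaB consensus match (percent, y axis), with and without a RelA peak, on chromosome 11, chromosome 14 and the other 17 autosomes; bars start at 0 and lines are Wilson 95% intervals. With a peak the shares were 29.9%, 31.8% and 29.4%, and without a peak 9.77%, 10.1% and 8.04%.

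Per megabase, chromosome 11 held 5.35 peaks and chromosome 14 held 2.85, counted over the 118.8 and 121.7 Mb between the first and the last gene. The ratio was 1.87, with an interval from counting error of 1.64 to 2.14. The other 17 autosomes had 4.06 ± 0.333 peaks per Mb (mean ± SD, n = 17), from 3.59 on chromosome 6 to 4.62 on chromosome 9. Both chromosomes lay outside this range because they were chosen as the highest and the lowest. Summed peak width depends on the number of peaks and is not an independent measure. By it, 3826 bp per Mb were covered on chromosome 11 and 2049 on chromosome 14, against 2937 ± 262 on the others.

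Per protein-coding gene the excess of chromosome 11 was gone. Chromosome 11 has 1602 protein-coding genes (13.5 per Mb) and chromosome 14 has 850 (6.99 per Mb), and they held 0.396 and 0.408 peaks per gene, a ratio of 0.971 (0.852 to 1.11). Both values were low: the other autosomes had 0.508 ± 0.123 (SD, n = 17), and the pair ranked 16th and 15th of 19 autosomes. A low ratio on a gene-rich chromosome was found elsewhere too, at 0.274 to 0.356 on the 3 other autosomes with at least 11 genes per Mb. With all protein-coding genes counted, chromosome 14 lay below chromosomes of like gene density: the 7 other autosomes with 6 to 8 genes per Mb had 0.470 to 0.630 peaks per gene and 3.59 to 4.54 peaks per Mb.

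**Figure D2:**
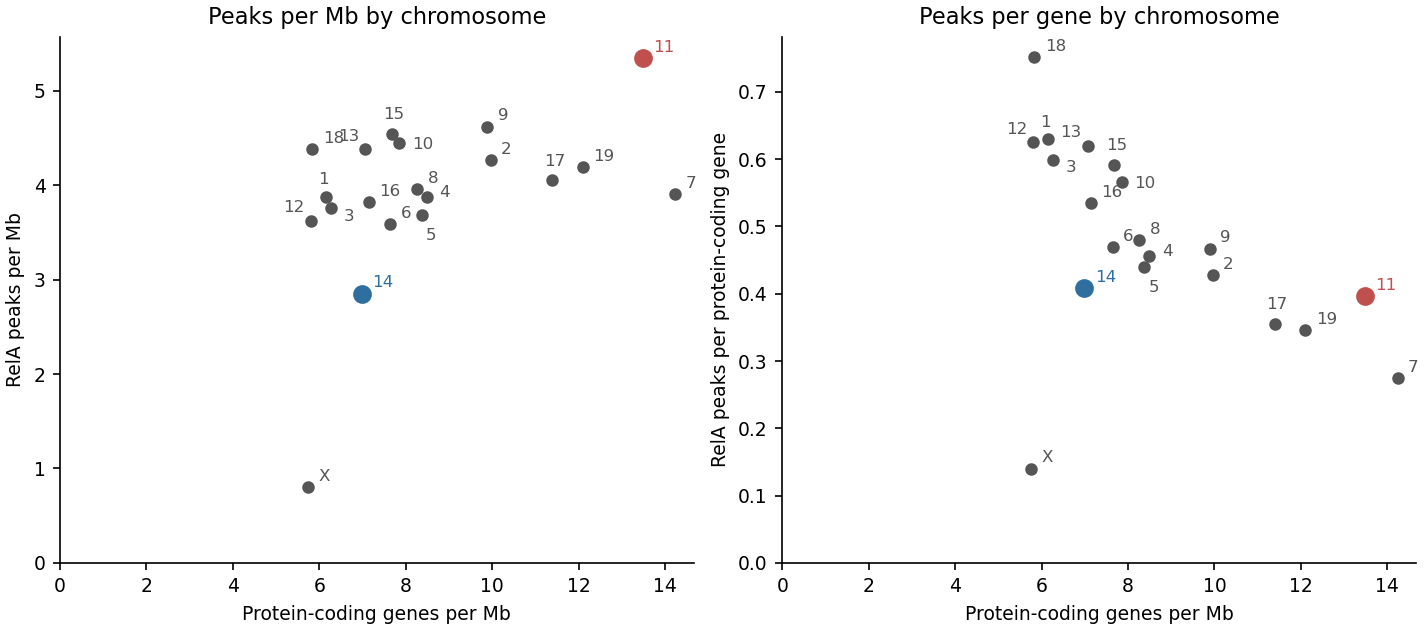
RelA peaks per Mb (left, y axis) and per protein-coding gene (right, y axis) against protein-coding genes per Mb (x axis), 1 point for each of the 19 autosomes and chromosome X. On the left chromosome 11 lies highest, at 5.35 peaks per Mb, and chromosome 14 lies below the other autosomes at 2.85; on the right they lie at nearly the same height, 0.396 and 0.408 peaks per gene.

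The near-equal number of peaks per gene depended on which genes were counted. Genes known only by a number (symbols of the form Gm or LOC with digits, mostly predicted genes) made up 149 of the 850 protein-coding genes on chromosome 14 (17.5%), the highest share of any autosome. On chromosome 11 they were 48 of 1602 (3.00%), and on the others 4.67 ± 2.37% (SD, n = 17). Without them chromosome 11 had 0.409 and chromosome 14 had 0.495 peaks per gene, a ratio of 0.825 (0.724 to 0.941). Chromosome 14 then ranked 10th of 19 in peaks per gene. Of the 7 autosomes of like gene density, counted with all protein-coding genes, it lay above chromosome 6 at 0.486. It still lay below the rest, from 0.576 on chromosome 16 to 0.661 on chromosome 13. With genes of every kind, noncoding included, chromosomes 11 and 14 had 0.209 and 0.150 peaks per gene. The ratio was 1.39 (1.22 to 1.58), so its direction turned with the gene set.

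The numbered genes of chromosome 14 stood in a few blocks with hardly any peaks. Of the 149, 115 lay in 3 bins of 5 Mb (0 to 5, 5 to 10 and 40 to 45 Mb), which held 152 protein-coding genes and 15 peaks. The first peak of the chromosome started at 7809389, 4.79 Mb after the start of the first gene, and 73 of the 77 protein-coding genes before it were numbered ones. Of the numbered genes, 6 of 149 on chromosome 14 (4.03%) and 4 of 48 on chromosome 11 (8.33%) had a peak centre within 10 kb, at median distances of 889 and 127 kb. How well short reads can be placed in these blocks was not measured here.

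A peak centre lay within 10 kb of an end of 336 of the 1602 protein-coding genes of chromosome 11 (21.0%, 19.1 to 23.0) and of 125 of the 850 of chromosome 14 (14.7%, 12.5 to 17.2). Over all chromosomes 17.1% of protein-coding genes had such a peak, and over the other autosomes 17.6%, ranging from 13.2% on chromosome 6 to 23.7% on chromosome 18 (17.9 ± 2.93, SD, n = 17). Both chromosomes thus lay inside that range, on opposite sides of the background. Clustered families here are olfactory, vomeronasal and CD300 receptors, keratins, keratin-associated proteins, mast cell proteases and granzymes. Without these and without the numbered genes the shares were 23.5% (21.4 to 25.8) and 18.4% (15.6 to 21.6). With the same genes left out, the other autosomes had 19.6 ± 2.90% (SD, n = 17), from 14.8% on chromosome 6 to 26.2% on chromosome 9. Chromosome 14 then lay below that mean and ranked 12th of the 19 autosomes. Within 1 kb the shares were 6.80% and 5.76%, with a background of 6.34% on all chromosomes and 6.6% on the other autosomes. A peak overlapped the promoter window of 77 of 1271 genes on chromosome 11 (6.06%) and of 39 of 675 on chromosome 14 (5.78%), against 5.59% of genes on all chromosomes.

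Peaks were divided alike between gene ends, gene bodies and intergenic DNA, counting genes of every kind. On chromosome 11, 128 peaks lay within 1 kb of a gene end (20.2%), 294 elsewhere inside a gene (46.3%) and 213 between genes (33.5%). On chromosome 14 the numbers were 65 (18.7%), 157 (45.2%) and 125 (36%). The chromosomes parted in the peaks far from protein-coding gene ends. More than 100 kb from any such end lay 93 peaks on chromosome 11 (14.6%, 12.1 to 17.6) but 106 on chromosome 14 (30.5%, 25.9 to 35.6). The other autosomes had 22.0 ± 5.44% (SD, n = 17) such peaks, and the median distance to a protein-coding end was 16.2 kb on chromosome 11 and 34.1 kb on chromosome 14. These distances run to gene ends only, so peaks deep inside long genes count as far from an end.

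Peaks were of like width on both chromosomes. The median was 673 bp on chromosome 11 (95% interval 655 to 695) and 679 bp on chromosome 14 (659 to 689), with ranges of 372 to 1919 and 373 to 1576 bp. Neighbouring peaks were 81.4 kb apart at the median on chromosome 11 (64.0 to 100.2) and 153.5 kb on chromosome 14 (123 to 190). Such spacing follows the peak density that set the members. Close pairs made up like shares of the peaks on both: 84 peaks (13.2%) and 54 peaks (15.6%) had a neighbour within 10 kb, against 16.1 ± 2.49% on the other autosomes.

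The widest peaks of chromosome 11 lay at a zinc finger gene and near Irf1 and Lif. The widest, 1919 bp at chr11:49202417-49204335, lay 0.115 kb from an end of Zfp62. The next, 1793 bp at chr11:53762622-53764414, lay 6.50 kb from Irf1, and the third, 1422 bp, 36.2 kb from Lif, a cytokine of the interleukin 6 family. On chromosome 14 the widest peaks were of 1576 bp, 73.8 kb from Serp2, of 1558 bp, 168 kb from Ddhd1, a phospholipase, and of 1399 bp, inside Ktn1, which encodes kinectin of the endoplasmic reticulum.

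Along the chromosomes, 25 bins of 5 Mb each held a median of 28 peaks on chromosome 11 (4 to 47) and 12 on chromosome 14 (0 to 35). At least 30 peaks were found in 11 bins of chromosome 11 and in 1 bin of chromosome 14. Fewer than 10 were found in 3 and in 9 bins. The peaks of chromosome 14 were thus low over much of its length rather than in 1 block. Its 6 fullest bins, at 20 to 35, 45 to 50 and 70 to 80 Mb, held 159 of 347 peaks (45.8%). On chromosome 11 the 6 fullest held 246 of 635 (38.7%).

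**Figure D3:**
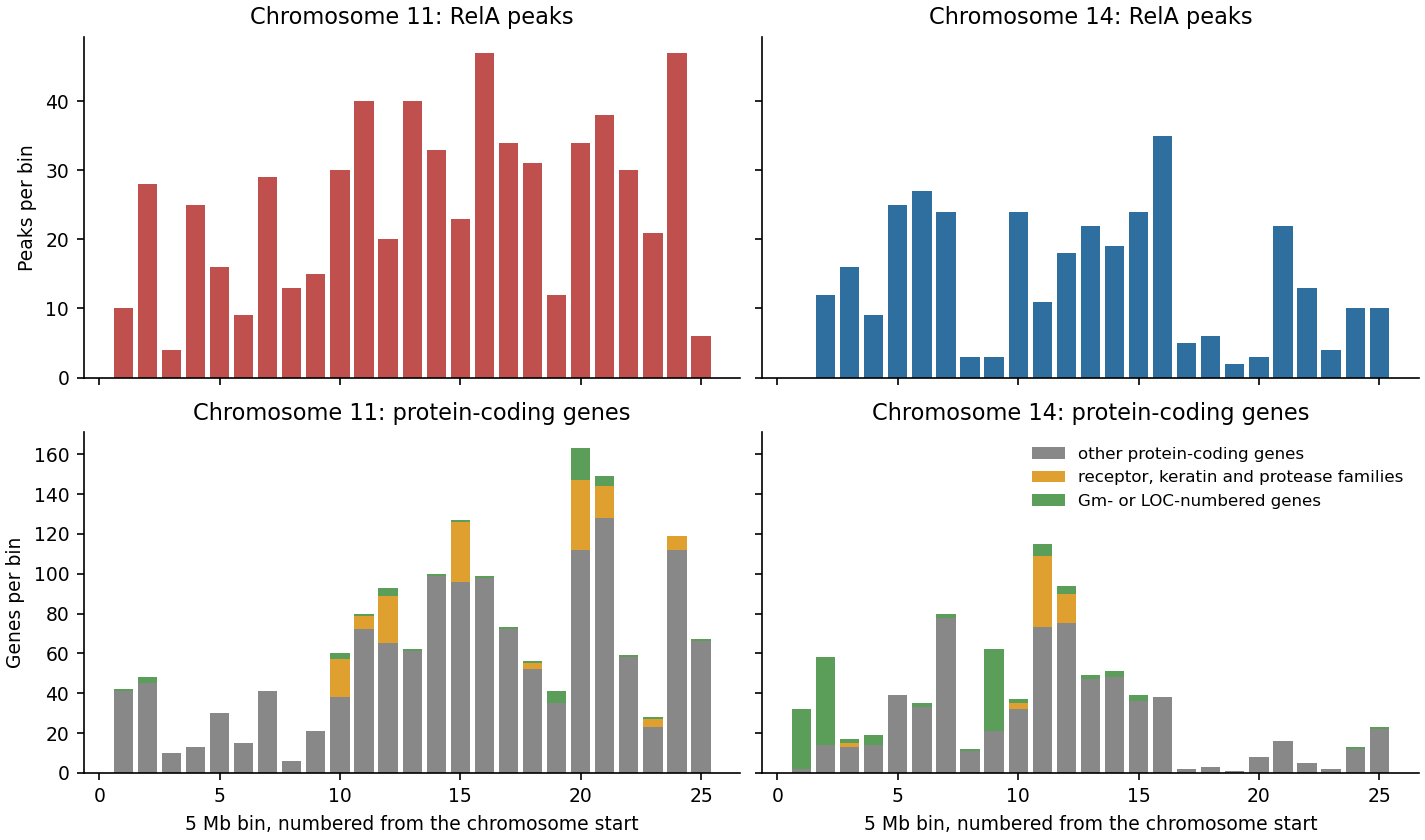
RelA peaks (upper panels, y axis) and protein-coding genes (lower panels, y axis, stacked by kind: the receptor, keratin and protease families, Gm- or LOC-numbered genes and all others) in each 5 Mb bin of chromosome 11 (left) and chromosome 14 (right); the x axis numbers the bins from the chromosome start. Chromosome 11 reaches 47 peaks in 2 bins, and chromosome 14 reaches 35 in 1 bin and falls to 2 to 6 peaks in the 4 bins from 80 to 100 Mb.

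The densest bins of chromosome 11 lay at 75 to 80 Mb and at 115 to 120 Mb, with 47 peaks each and 99 and 119 protein-coding genes. In the first, Smg6, a nuclease of nonsense-mediated mRNA decay, held 9 peaks and Ksr1, a scaffold of the Ras to ERK pathway, held 3, counting peaks in a gene or within 10 kb of it. Smg6 begins before this bin, and its peaks starting at 74962745 and 74990455 lie before 75 Mb. In the second, Septin9, a cytoskeletal GTPase, held 3. The bin at 50 to 55 Mb held 40 peaks among 80 genes, with 5 at Tnip1 and 2 at Irf1.

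The densest bins of chromosome 14 had fewer genes. The bin at 75 to 80 Mb held 35 peaks among 38 protein-coding genes, with 5 at Enox1, a cell surface oxidase, and 4 at Vwa8. The bin at 25 to 30 Mb held 27 peaks among 35 genes, with 7 at Arhgef3, a guanine nucleotide exchange factor, and 3 at Dennd6a. The bin at 20 to 25 Mb held 25 peaks among 39 genes, with 7 at Lrmda and 2 at Sec24c, a subunit of the COPII coat.

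Peaks followed gene number more closely on chromosome 11 than on chromosome 14, as a description over bins that share 1 list. Pearson's r between peaks and protein-coding genes per bin was 0.624 (Spearman's rank correlation 0.676, n = 25 bins) on chromosome 11 and 0.345 (0.495, n = 25) on chromosome 14. Without the 2 gene-richest bins r was 0.624 and 0.490, so the difference rested in part on those bins. The gene-richest bin of chromosome 14, at 50 to 55 Mb, held 115 genes and 11 peaks.

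Bins of like gene number, clustered families left out, were compared over the 23 bins of each chromosome that lie whole between its first and last gene, without the bins at both ends. In bins with at least 50 genes, chromosome 11 had 34.8 ± 8.32 peaks (SD, n = 12 bins), chromosome 14 had 14.5 ± 7.40 (n = 6), with ranges of 20 to 47 and 3 to 24, and the other autosomes had 25.7 ± 10.2 (n = 105). In bins with 25 to 49 genes the values were 23.0 ± 8.37 (n = 5), 26.2 ± 4.62 (n = 6) and 22.4 ± 9.21 (n = 149). In bins with 10 to 24 genes they were 14.8 ± 8.56 (n = 5), 12 ± 7.25 (n = 5) and 16.9 ± 8.57 (n = 122). The bins of medium gene number thus differed by less than their spread, and the gap was in the gene-rich ones. With the end bins included, the class of at least 50 genes held 32.5 ± 11.3 peaks on chromosome 11 (n = 13, from 6 to 47), the same 14.5 ± 7.40 on chromosome 14 and 25.2 ± 10.4 on the others (n = 110). The class of 25 to 49 genes then held 20.8 ± 9.17 (n = 6), 22.4 ± 10.8 (n = 7, from 0) and 22.2 ± 9.38 (n = 153). Of the 6 gene-rich bins of chromosome 14, that at 5 to 10 Mb held 12 peaks and 44 numbered genes among 58, and that at 40 to 45 Mb held 3 peaks and 41 numbered genes among 62. The other 4, with 2 to 6 numbered genes each, held 11, 18, 19 and 24 peaks, still below the mean of the other autosomes. Bins with fewer than 10 genes numbered 6 on chromosome 14, with 5.50 ± 3.94 peaks, and 1 on chromosome 11, with 13.

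Summed over the same 23 bins, a count based on gene number was set beside each chromosome's peaks, giving every bin the mean of bins of its class on the other autosomes. Chromosome 11 had 619 peaks against 513, a ratio of 1.21, and chromosome 14 had 337 against 418, a ratio of 0.806. The other autosomes ranged from 0.831 on chromosome 5 to 1.23 on chromosome 15 (1.01 ± 0.118, SD, n = 17), so chromosome 14 was the lowest of the 19 and chromosome 11 the third highest. By length alone the ratios were 1.34 and 0.728. Counted without the numbered genes they were 1.18 and 0.837, and with the end bins, which bring in all 635 and 347 peaks, 1.16 and 0.783, with the same ranks in both cases.

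**Figure D4:**
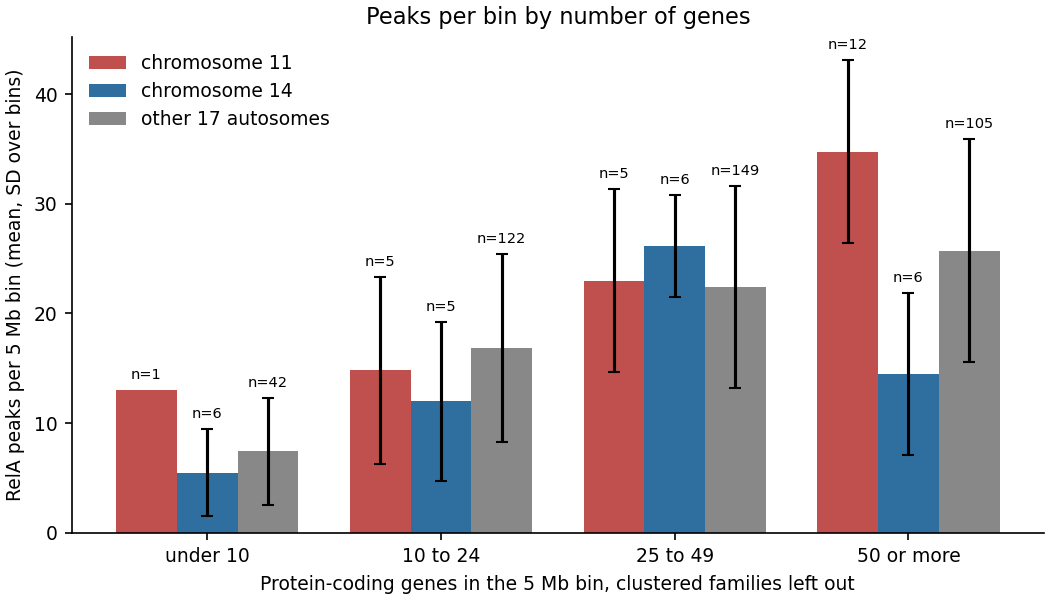
Mean RelA peaks per 5 Mb bin (y axis), bins at the chromosome ends left out, in 4 classes of protein-coding gene number, clustered families left out (x axis), for chromosome 11, chromosome 14 and the other 17 autosomes; lines are the SD over bins and labels give the number of bins. In bins with 50 or more genes chromosome 11 stands at 34.8, the other autosomes at 25.7 and chromosome 14 at 14.5.

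Stretches without a peak took up more of chromosome 14. Fewer peaks on a like span leave longer gaps, so this follows the peak density that set the members. Stretches on the other autosomes were not measured. Between neighbouring peaks, 25 stretches of at least 1 Mb summed to 51.4 Mb on chromosome 14 (42.2% of its gene span), against 16 stretches and 26.9 Mb on chromosome 11 (22.6%). The longest on chromosome 14 was 3.86 Mb (chr14:37110996-40966987), with edges nearest to 2610528A11Rik and Tspan14, and held 4 protein-coding genes, among them Nrg3, a neuregulin. The next, 3.65 Mb, had its edges nearest to Slitrk1 and Slitrk5, members of a family of neuronal membrane proteins, and the third, 3.58 Mb, nearest to Pcdh20 and Pcdh9, protocadherins of neuronal adhesion, with 0 protein-coding genes inside.

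On chromosome 11 the longest stretch was 4.08 Mb (chr11:12474239-16558903) and held 3 protein-coding genes. Its edges were nearest to Cobl, an actin nucleator, and Sec61g, a subunit of the protein translocon. The second was 2.90 Mb, with edges nearest to Gm40814 and Fignl1, and held 11 genes, among them Ikzf1, a transcription factor of lymphocytes. The third was 2.25 Mb, nearest to Tenm2, a teneurin of neuronal contacts, and Mat2b, with 0 genes. Nrg3 and Ikzf1 were named after their values were seen.

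Many peaks at 1 gene were mostly found in long genes, above all on chromosome 14. On chromosome 11 the genes with the most peaks in them or within 10 kb were Smg6 (9 peaks, 239 kb long), Egfr, the epidermal growth factor receptor (6, 162 kb), Slit3, a guidance ligand (6, 587 kb), Tnip1 (5, 52.2 kb) and Cuedc1 (5, 95 kb). On chromosome 14 they were Lrmda (7, 1037 kb), Arhgef3 (7, 289 kb), Ptprg, a receptor tyrosine phosphatase (7, 689 kb), Fhit, a hydrolase in a fragile site (6, 1612 kb), and Gpc6, a glypican (5, 1055 kb). In Tnip1 the 5 peaks stood close together, from 54953931 to 54972741, and 1 of them covered the start site. In Ptprg the 7 peaks were spread from 11612890 to 12163587, each at least 59.8 kb from an end.

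Of the response genes listed for these chromosomes, 42 of 98 on chromosome 11 (42.9%, 33.5 to 52.7) and 14 of 42 on chromosome 14 (33.3%, 21.0 to 48.4) had a peak centre within 10 kb, against 17.1% of all protein-coding genes. The difference between the chromosomes was within these intervals. Median distances were 14.6 and 49.6 kb. Neighbouring genes can share 1 peak, and the lists were chosen with results of these data known.

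**Figure D5:**
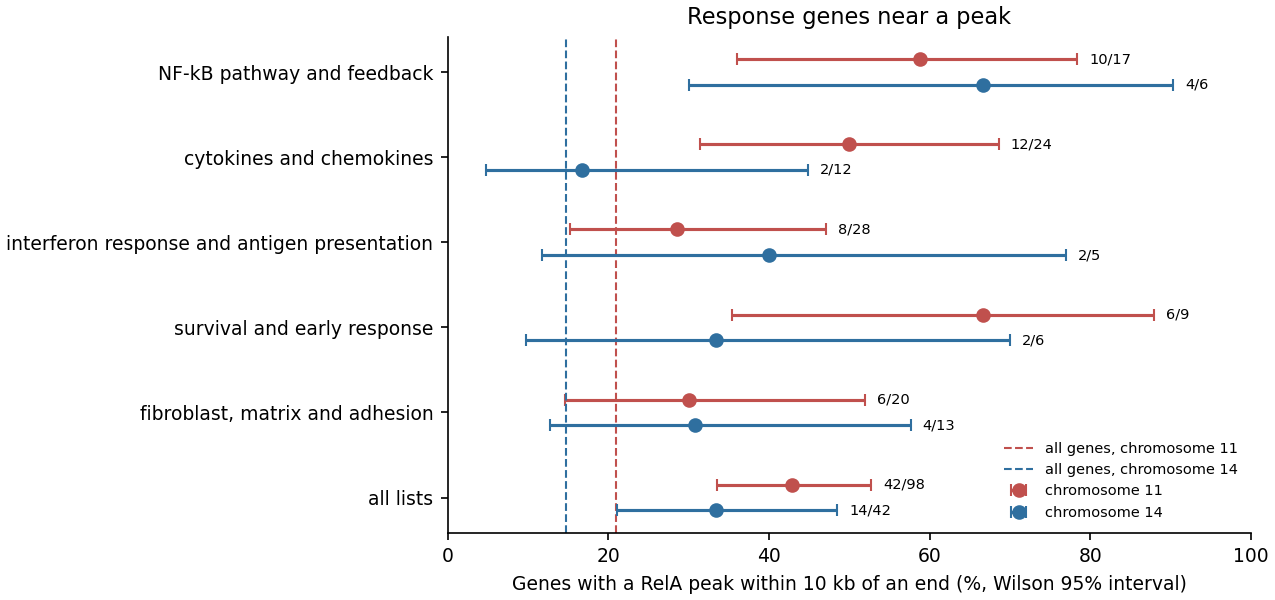
Share of listed genes that had the centre of a RelA peak at most 10 kb from an end (percent, x axis) in 5 gene lists and all lists together (y axis) on chromosome 11 and chromosome 14; lines are Wilson 95% intervals, labels give genes near a peak of genes listed, and dashed lines mark all protein-coding genes of each chromosome (21.0% and 14.7%). The NF-kB list reaches 10 of 17 and 4 of 6, and the cytokine list 12 of 24 and 2 of 12.

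In the NF-kB pathway list, 10 of 17 genes on chromosome 11 and 4 of 6 on chromosome 14 were near a peak. On chromosome 11 the peak centre lay 0.115 kb from Tnip1, 0.134 kb from Rel, which encodes the NF-kB subunit c-Rel, and 0.243 kb from Map2k3, a kinase upstream of p38. Map3k14, which encodes the kinase NIK of the noncanonical pathway, had a peak 0.393 kb from an end and 2 more inside it, and Rffl, a ubiquitin ligase, had 1 at 0.823 kb. The listed genes farthest from a peak were the kinase gene Mapk7 at 114 kb and the phosphatase genes Dusp14 at 112 kb and Dusp3 at 89.1 kb. On chromosome 14 a peak stood 0.021 kb from Tnfrsf10b, a death receptor, 0.0235 kb from Prkcd, protein kinase C delta, and 0.444 kb from Rnf31, the catalytic subunit of the linear ubiquitin ligase that acts below the TNF receptor. Ripk3, the kinase of necroptosis, was 34.6 kb and Mapk8, which encodes JNK1, 51.7 kb from a peak centre.

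Of the cytokine genes, 12 of 24 on chromosome 11 (50%, 31.4 to 68.6) and 2 of 12 on chromosome 14 (16.7%, 4.70 to 44.8) had a peak nearby, with overlapping intervals. The shares of all protein-coding genes were 21.0% and 14.7%, and on chromosome 14 the cytokine genes were close to that share. The chemokine genes Ccl5, Cxcl16 and Ccl8 had a peak centre 0.146, 0.162 and 0.468 kb from an end. The peak at chr11:69685663-69686313 lay between Tnfsf12, which encodes TWEAK, and Tnfsf13, which encodes APRIL, at 0.252 and 0.434 kb. Genes of T helper 2 cytokines were far from a peak, Il13 at 111 kb and Il4 at 92.5 kb, and so was the chemokine gene Ccl3 at 66.8 kb. On chromosome 14 none of the 12 listed genes had a peak within 1 kb, and Il17rb, Il17d and Il3ra were 248, 217 and 204 kb away.

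Near a peak were 8 of 28 interferon and antigen presentation genes on chromosome 11 (28.6%, 15.3 to 47.1). On chromosome 14 it was 2 of 5 (40%, 11.8 to 76.9). Both intervals hold the share of all protein-coding genes of the chromosome, 21.0% and 14.7%. The nearest centre lay 0.017 kb from an end of Irf1, 0.189 kb from Psme3, a proteasome activator, and 0.929 kb from Slfn2, a Schlafen gene of lymphocyte quiescence. Psmd12, Ifi35 and Psmd11 were 297, 132 and 127 kb from a peak. On chromosome 14 the peak at chr14:55590719-55591820 was shared: it lay 0.169 kb from Psme2, a subunit of the immunoproteasome activator, 0.444 kb from Rnf31, 9.74 kb from Psme1 and 12.7 kb from Irf9, a subunit of the interferon-activated factor ISGF3. The proteasome genes Psmb5 and Psmb11 were 68.6 and 57.1 kb away.

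Among survival and early response genes, 6 of 9 on chromosome 11 had a peak nearby (66.7%, 35.4 to 87.9), against 21.0% of all its protein-coding genes. On chromosome 14 it was 2 of 6 (33.3%, 9.68 to 70.0), an interval that holds the 14.7% of all its protein-coding genes. At Trp53 the centre lay 0.015 kb from the gene's end, at Per1, a circadian clock gene, 0.196 kb, at Birc5, which encodes survivin, 0.207 kb and at Bcl6b, a transcriptional repressor, 0.621 kb. Ypel2, Nos2 and Hic1 were 31.7, 31.5 and 13.9 kb away. Nr1d2, a clock repressor, was the gene on chromosome 14 with a peak within 1 kb, at 0.223 kb, and Klf12, Bcl2l2 and Bnip3l lay 324, 197 and 36.7 kb from a peak.

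Among fibroblast, matrix and adhesion genes, 6 of 20 on chromosome 11 (30%, 14.5 to 51.9) had a peak nearby, 0 of them within 1 kb. On chromosome 14 it was 4 of 13 (30.8%, 12.7 to 57.6). Both intervals hold the share of all protein-coding genes of the chromosome, 21.0% and 14.7%. Plau, which encodes the urokinase protease, had a peak at 0.202 kb and Nid2, a basement membrane nidogen, at 0.442 kb, both on chromosome 14. Wnt3 and Wnt9b, neighbours on chromosome 11, were 462 and 415 kb from a peak. Sgcd, a sarcoglycan gene of 1018 kb, had 4 peaks inside it, the closest 187 kb from an end, which shows that the distance to an end misses peaks deep in long genes. Pcdh17, Adam28 and Wnt5a on chromosome 14 were 1510, 433 and 108 kb away.

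Gene clusters, meaning runs of at least 3 members of a family, were counted with and without a peak. Of 19 such clusters on chromosome 11, 13 held no peak between their first and last gene, and of 8 on chromosome 14, 5 held none. Many clusters are short: at the density of its chromosome, at least 1 peak would fall in 11 of the 19 and in 3 of the 8, and of these longer ones 8 and 1 held none. Some overlap, as the keratin-associated proteins lie among the keratins, and the count is a description of families chosen with results of these data known.

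The CC chemokines, which attract monocytes and T cells, were the cluster family with the densest peaks. From Ccl2 to Ccl1, 5 peaks stood in 144 kb of chromosome 11 (34.7 per Mb), and from Ccl5 to Ccl4 another 5 in 139 kb (36 per Mb), against 5.35 per Mb for the chromosome. A peak centre within 10 kb was found for 6 of 11 members, with Ccl5 nearest and Ccl3 farthest, against 2 of 13 on the other autosomes. The Schlafen genes held 3 peaks in 335 kb, with 1 of 8 members near a peak, Slfn2 nearest and Slfn14 farthest. Of the immunity-related GTPases, which restrict intracellular parasites, 3 of 6 were near a peak, the closest Irgm2 at 1.1 kb and the farthest Tgtp1 at 96.3 kb.

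Olfactory receptors had none within 10 kb on either chromosome. None of 83 genes on chromosome 11 was near a peak, which allows a share of up to 3.61% by the limit of 3 counts that a count of 0 allows (Wilson upper bound 4.42%). On chromosome 14 it was none of 39, which allows up to 7.69% (Wilson 8.97%), and 7 of 981 were near one on the other autosomes (0.714%). The nearest were Olfr1393 at 13.2 kb and Olfr750 at 12.1 kb, and the farthest Olfr392 at 637 kb and Olfr722 at 906 kb. The largest cluster on chromosome 11, 30 receptors from Olfr20 to Olfr412, held no peak in 1015 kb. The cluster from Olfr1396 to Olfr1380 did hold 2 peaks in 452 kb, and 1 of them was the widest peak of the chromosome, at Zfp62.

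Several other families of chromosome 11 also had clusters without a peak. The 27 type I keratins of epithelium and hair stretched over 1037 kb with 0 peaks between Krt222 and Krt42 and 1 member near a peak, Krt222 at 2.25 kb from a peak outside the cluster, while Krt33a was 392 kb away. The keratin-associated proteins of hair, 23 genes, lay 320 kb (Krtap3-3) to 579 kb (Krtap4-13) from a peak. No peak stood in the 293 kb from Myh3 to Myh13, the myosin heavy chains of skeletal muscle, in the alpha globin cluster or in the 246 kb of 11 CD300 receptor genes of myeloid cells. The zinc finger genes from Zfp354c to Zfp354a (6 genes, 262 kb) and the lipid transporter genes from Abca8b to Abca5 (5 genes, 406 kb) held 0 peaks as well. The interval from Kif3a to Il5, the T helper 2 interleukin locus, was empty over 159 kb, while Csf2, which encodes GM-CSF on the same list, had a peak at 2.32 kb. The Hoxb genes of body patterning held 1 peak in 174 kb, 0.830 kb from Hoxb9.

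On chromosome 14 the clusters were mainly immune and secretory. The 15 mast cell proteases and granzymes held 0 peaks in 321 kb and ranged from 106 kb (Cma1) to 424 kb (Gzmb) from a peak. The T cell receptor alpha and delta segments are 176 entries that are joined in T cells and are not counted as protein-coding. They took up 1796 kb with 2 peaks (1.11 per Mb, against 2.85 for the chromosome). Within 10 kb of a peak were 5 members, Trav13-2 nearest at 1.04 kb. Of 20 secreted ribonucleases 2 were near a peak, with Ang, which encodes angiogenin, nearest at 7.56 kb and Ear1 farthest at 363 kb. The beta-defensins (5 genes), the Slitrk genes (3) and the protocadherins (4, from Pcdh8 at 112 kb to Pcdh17 at 1510 kb) had 0 members near a peak. With so few genes these counts allow shares of up to 60%, 100% and 75% by the limit of 3 counts. Among all protein-coding genes of the chromosome the share was 14.7%.

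Outside the clustered families, too, chromosome 11 had the higher share of genes near a peak. With 145 genes of the receptor, keratin and protease families named above left out on chromosome 11 and 56 on chromosome 14, the shares near a peak were 23.0% and 15.7%, and the peaks per gene 0.436 and 0.437. With these families left out, the share near a peak was 19.1 ± 3.03% (SD, n = 17) on the other autosomes. Without the numbered genes as well, the gap was smaller, at 23.5% and 18.4%.

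MicroRNA genes, which were named here after their values were seen, had a peak within 10 kb in 16 of 88 cases on chromosome 11 (18.2%, 11.5 to 27.5) and in 8 of 43 on chromosome 14 (18.6%, 9.74 to 32.6), with a background of 14.1% over all chromosomes. The mature RefSeq sequences of a few are shown to let the targeting part be read, with the seed, bases 2 to 8, in capitals.
mmu-miR-195a-5p, chr11:70235062.0-70235082.0, plus strand: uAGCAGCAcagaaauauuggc
mmu-miR-497a-5p, chr11:70234730.0-70234751.0, plus strand: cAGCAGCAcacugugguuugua
mmu-miR-193a-3p, chr11:79712009.0-79712030.0, plus strand: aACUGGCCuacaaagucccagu
mmu-miR-365-3p, chr11:79726467.0-79726488.0, plus strand: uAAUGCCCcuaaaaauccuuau
mmu-miR-196a-5p, chr11:96265187.0-96265208.0, plus strand: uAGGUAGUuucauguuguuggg
mmu-miR-7671-3p, chr11:53763597.0-53763618.0, minus strand: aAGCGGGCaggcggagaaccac
mmu-miR-378c, chr14:46954905.0-46954925.0, minus strand: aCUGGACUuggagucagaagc
The first 2 share the seed AGCAGCA and 1 peak, chr11:70230099-70230739, 4.62 kb from Mir195a and 4.30 kb from Mir497, which was also the peak nearest to Bcl6b. Mir193a and Mir365-2 are neighbours with a peak each, at 0.787 and 3.21 kb. Mir196a-1 lay 6.90 kb from the peak of the Hoxb cluster, and Mir7671 stood inside the 1793 bp peak near Irf1. The gene of miR-378c on chromosome 14 had a peak at 1.78 kb.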

How the data were processed

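RelA ChIP-seq peaks of wild-type mouse embryonic fibroblasts were analysed as the authors deposited them: 1 list of positions in base pairs with 3 columns (chromosome, start, end). The submitters' processing notes name mm10, MACS2, deepTools, Picard 1.13, SAMtools, Bowtie2 2.3 and cutadapt 1.9.1, with no order. The peak threshold, and any pooling of libraries before peak calling, were not given in the sources used here.

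Starts were converted to positions counted from 1. Genes came from a RefSeq table of GRCm38.p6, the assembly of mm10, with 49209 genes on chromosomes, 21521 of them protein-coding. In addition, 345 genes placed on other scaffolds were left out, as were 6 peaks on contigs. Distances run from the peak centre to the nearer gene end, since the table has no strand. Promoter windows of 300 bases came from RefSeq and were matched by symbol, for 17274 protein-coding genes. Shares carry Wilson 95% intervals, and medians carry order-statistic intervals. Scripts ran in Python 3.11.15 with pandas 2.3.3 and scipy 1.17.1, and the counting steps were tested on simulated positions.

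The chromosomes, gene lists (166 symbols, 98 on chromosome 11, 42 on 14 and 26 elsewhere, which were not used) and families were chosen with earlier results of these data known. Named genes were the listed genes within 1 kb of a peak, up to 3 per list farthest from one, the 5 genes with the most peaks, 2 genes in each of the 3 densest bins, the edges of the 3 longest empty stretches, the genes nearest the 3 widest peaks, and the nearest and farthest members of each family. A single result under this rule is not reported here. Genes outside it were named after their values were seen. Alternatives were other windows, bins and gene sets, merged or wider peaks, and a looser motif.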

Additional observations from a re-analysis of the deposited data

How the results depend on the processing

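No paired analysis was possible because the list has no value per library, and no replicate could be left out for the same reason. Of 84 alternatives to 24 results, 45 kept the value within its interval, 39 moved it and 0 reversed a direction that the interval had called. Only the ratios of peaks per Mb and of peaks to the count from gene number could be reversed by this rule. Shares, medians and the ratio of peaks per gene, with 1 inside its interval, could not. The ratio of peaks per gene, 0.971, became 1.39 with genes of any kind and, under alternatives chosen after seeing the data, 0.825 without numbered genes and 0.838 without numbered genes and clustered families. The share of peaks in the fullest 25% of bins became 46.5% with 2 Mb bins, 33.2% with 10 Mb bins and 33.7% with shifted bins on chromosome 11, and 55.0% with 2 Mb bins on chromosome 14.

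The share of genes near a peak was 6.80%, 14.2% and 52.0% on chromosome 11 with windows of 1, 5 and 50 kb, 26.2% with peaks inside genes added, 11.2% with the wider peaks and 23.5% without numbered genes and families. On chromosome 14 these were 5.76%, 10.8%, 35.6%, 20.2%, 8.35% and 18.4%, so chromosome 11 was higher in each. With protein-coding genes only, peaks at gene ends, inside and between genes were 15.1%, 41.4% and 43.5% on chromosome 11, and 12.1% at ends and 46.1% between genes on chromosome 14. With gene ends of 5 kb they were 40.3%, 33.5% and 26.1%, and 36.3%, 32.9% and 30.8%.

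The listed response genes were near a peak in 17.3%, 71.4% and 24.5% of cases on chromosome 11 with 1 kb, 50 kb and the wider peaks, and in 16.7%, 50% and 26.2% on chromosome 14, so chromosome 14 was the higher with the wider peaks. Clustered families on chromosome 11 became 0% and 6.21% with 1 and 50 kb. The looser kappaB pattern, which fixes only the first 3 and last 2 of 10 positions, stood in 77.0% and 79.5% of promoter windows under a peak, against 57.9% of all autosomal windows. A wider window or a looser pattern cannot lower such a share, and fewer peaks cannot raise it. Why chromosome 14 was the higher with the wider peaks was not tested. Of 280 alternatives to the distances of single genes, 21 moved a gene from within 10 kb to beyond it, each with the wider peaks only, among them Map2k3 (325 kb), Tnfrsf10b (211 kb) and Plau (31.2 kb). The counts based on gene number, whose alternatives (other gene sets, end bins included) were also chosen after seeing the data, stayed within their intervals. Depth limits cannot be given, since the list has no counts. The list does not tell which peaks were present before TNF, and regions to which short reads cannot be assigned were not measured.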
